A study of Mus musculus with 2 samples.

Results

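The genes described here encode the classical axon guidance ligands and receptors: semaphorins, ephrins, slits and netrins on the ligand side, and plexins, neuropilins, Eph receptors, Robo, Unc5 and Dcc on the receptor side. They were chosen by symbol from the GENCODE M21 annotation of mm10, kept to protein-coding genes on autosomes, so the rule itself uses no measured value, although the set was proposed with earlier results of these data known. The choice gave 66 genes of 20753 autosomal protein-coding genes, 34 for ligands and 32 for receptors, in 12 families. Chromatin open to the nuclease DNase I was mapped by DNase-seq, which reads the ends of DNA fragments released where the enzyme reaches the DNA. The tissue was hippocampus (labelled "layer of hippocampus") from female mice aged 14 days of B6CASTF1/J, the F1 hybrid of C57BL/6J and CAST/EiJ. All samples formed 1 group of 2 libraries, biological replicates 1 and 2 in the labels, each label naming 3 females under a shared donor identifier. The sources used here do not tell whether different animals or pools went into each library, and part of the spread between libraries may therefore be technical. With a single group there was no comparison between conditions and no test, and every measure is given for replicate 1 and then replicate 2, beside the same measure over all autosomal protein-coding genes.

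Axon guidance molecules steer growing axons by attraction and repulsion at the growth cone. Semaphorins signal through plexins, secreted class 3 semaphorins with neuropilins as co-receptors. Ephrins and Eph receptors signal in both directions at cell contacts, slits repel through Robo receptors, and netrins attract through Dcc and repel through Unc5 receptors. In the hippocampus these systems are known for placing mossy fibre and entorhinal projections in their layers and, later, for pruning and for shaping synapses.

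The longer of the deposited lists had 115699 peaks for replicate 1 and 167829 for replicate 2, with a median width of 200 bp in both. The scaling of the authors' peak signal is not stated and the depth in reads is unknown, so signal was read only as a percentile within a library. The label of the tissue was checked by promoter peaks of marker genes. Of 10 markers of hippocampal and excitatory neurons 9 had promoter peaks in both libraries, the tenth, Slc17a7, in replicate 1 only. The count was 5 of 5 for astrocytes, 4 of 5 for the oligodendrocyte lineage, 2 of 5 for microglia, 1 of 5 for vessels, and 0 of 10 for tissues that should be absent (liver, muscle, epithelium, blood and islet genes). Of the absent tissues, Ins2 had promoter peaks in replicate 1 only and Myh4 in replicate 2 only. The counts for both libraries stand beside 62.9% of all autosomal protein-coding genes with promoter peaks in both, so the microglia and vessel lists lay under the share of all genes. In bulk tissue, fewer cells with an open site and less openness per cell cannot be told apart, and the part of each cell type in the values below was not tested.

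Nearly all guidance genes had an open promoter. A promoter peak, a peak within 500 bp of any protein-coding transcript start of the gene, was present for 62 of 66 genes (93.9%) in replicate 1, for 58 (87.9%) in replicate 2 and for 58 in both. Over all autosomal protein-coding genes the share was 67.0% in replicate 1, 64.5% in replicate 2 and 62.9% in both. Promoter peaks in both libraries were found for 30 of 34 ligands and 28 of 32 receptors. None of the 66 genes had the coding start of another gene within 1 kb of its own starts, against 13.0% of all genes, so no promoter window here overlapped that of another coding gene.

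The open promoters were mostly weak ones. Among genes with a promoter peak, the guidance genes had a median signal of 3.27 in replicate 1 and 1.29 in replicate 2, against 5.81 and 2.62 over all genes with a promoter peak. Their median percentile among open promoters was 31.9 and 27.8. Of the 58 genes with a peak in both libraries, 44 (75.9%) lay under the 50th percentile in both libraries, against 42.3% of all such genes, and 9 lay above it in both. Ligand promoters had a median percentile of 27.4 and 21.4, and receptor promoters of 35.8 and 33.1.

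**Figure D1:**
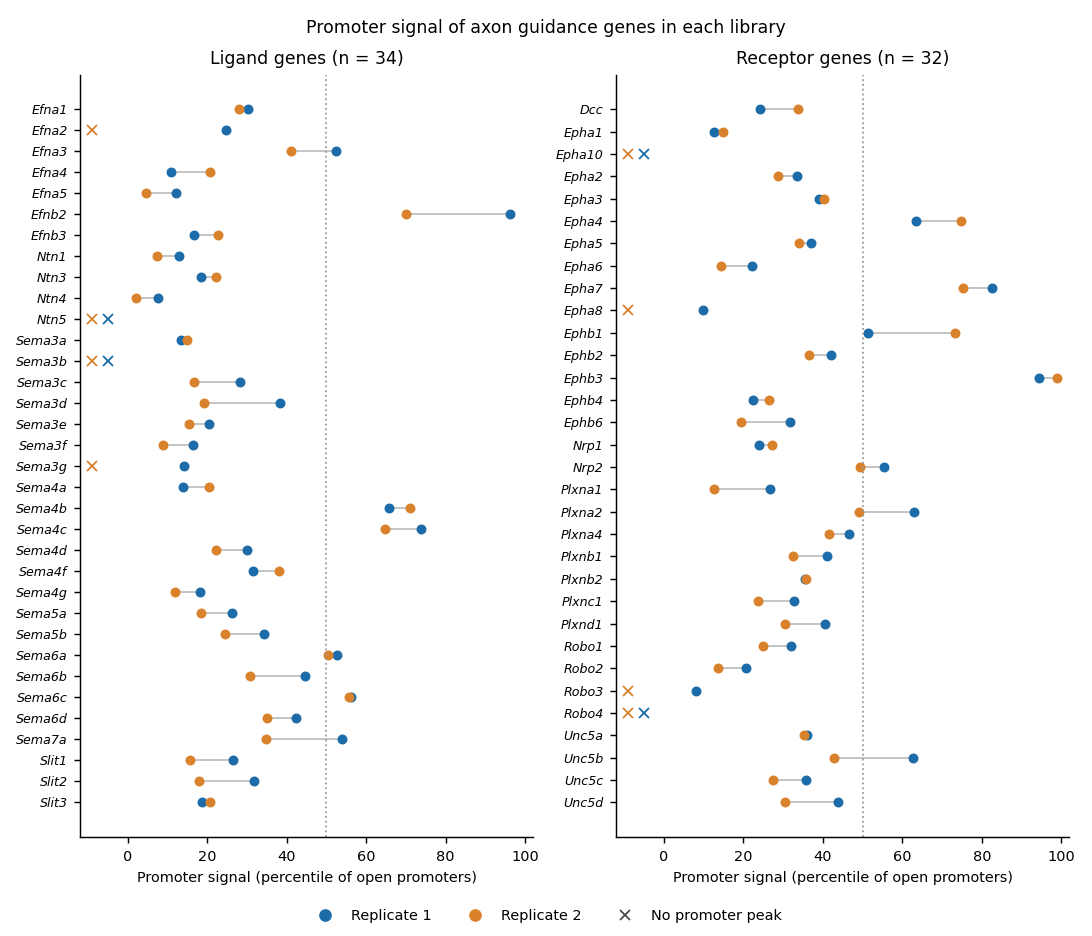
Percentile of the promoter signal among all open promoters of the same library (horizontal axis) for each ligand gene (left) and receptor gene (right); blue points are replicate 1, orange points replicate 2, and crosses mark libraries without a promoter peak. Most points lie left of the dotted 50th percentile, and Ephb3 and Efnb2 stand furthest to the right in replicate 1, at 94.3 and 96.2.

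Among the semaphorins, 18 of 20 were open in both libraries. Sema4b, a transmembrane semaphorin, had the strongest promoter of the family by the lower of its 2 percentiles, with signals of 8.48 and 4.21 (percentiles 65.8 and 70.9). Sema4c, another of its class, stood at 73.7 and 64.6, higher in replicate 1 and lower in replicate 2. The other class 4 genes, Sema4a, Sema4d, Sema4f and Sema4g, lay between 13.8 and 31.4 in replicate 1 and between 11.9 and 38.1 in replicate 2. The class 3 genes, which encode secreted ligands, overlapped that range. Sema3a, a repellent for many forebrain axons, stood at the 13.3 and 14.8 percentiles. Sema3f, which acts through neuropilin-2 on hippocampal axons, stood at 16.3 and 8.95. Of the 5 class 3 genes with a peak in both libraries, the highest, Sema3d, reached 38.2 and 19.3, so all 5 lay under the 50th percentile in both libraries. Sema3b had no promoter peak in either library, and Sema3g had a peak in replicate 1 only, with a signal of 1.34 (percentile 14.1).

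The ephrin promoters ranged widely. Efnb2, a transmembrane ephrin, had signals of 18 and 4.12, at the 96.2 and 70.0 percentiles, the highest in replicate 1 among all 66 genes. Efnb3, the other autosomal ephrin-B, stood at 16.6 and 22.7. Efna3 was the strongest ephrin-A promoter with signals of 6.21 and 2.03 (52.5 and 41.0), and Efna5 had 1.19 and 0.352 (12.2 and 4.65), the lowest of the ephrin genes in replicate 2, while Efna4 was the lowest in replicate 1 (10.8 and 20.7). Efna2 had a promoter peak in replicate 1 only, with a signal of 2.37 (24.7). Ephrin-A proteins are held at the membrane by a lipid anchor, unlike the transmembrane ephrin-B proteins.

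All Slit and netrin promoters lay under the 50th percentile in both libraries. Slit3 had the strongest of the Slit promoters by the smaller of its 2 percentiles, at 18.6 and 20.7, with signals of 1.76 and 0.935. The netrin genes open in both libraries were Ntn1, Ntn3 and Ntn4, and their median percentile of 12.9 and 7.4 was the lowest of the 12 families. Ntn3 had signals of 1.73 and 0.998 (18.3 and 22.2). Ntn1, the best known axon attractant of the family, had 1.23 and 0.438 (12.9 and 7.4). Ntn5 had no promoter peak in either library.

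On the receptor side, Ephb3, a receptor of ephrin-B ligands, had signals of 16.6 and 9.71. Its percentiles of 94.3 and 98.8 made it the strongest of the 66 promoters by the lower of both values. The strongest Epha promoter was that of Epha7, with 12 and 4.66 (82.5 and 75.3), followed by Epha4 with 8.08 and 4.59 (63.5 and 74.7). Ephb1 had 6 and 4.45 (51.3 and 73.3). These 4 Eph receptor genes were the only receptor genes above the 50th percentile in both libraries. Epha8 had a peak in replicate 1 only, with a signal of 0.973 (9.74). Epha10 had none in either library.

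The semaphorin and netrin receptor genes had none above the 50th percentile in both libraries, although family medians were close, at 40.6 and 32.5 for plexins and 39.9 and 32.8 for Unc5 genes beside 35.2 and 33.9 for Epha and 42.0 and 36.4 for Ephb. All 7 plexin genes were open in both libraries, with Plxna2 highest at 7.98 and 2.56 (62.9 and 49.2). Nrp2, the neuropilin that binds Sema3f, had 6.66 and 2.57 (55.5 and 49.3), and Nrp1, the co-receptor for Sema3a, had 2.28 and 1.26 (23.9 and 27.3). All 4 Unc5 genes, which encode repulsive netrin receptors, were open in both libraries, with Unc5b highest at 7.96 and 2.13 (62.8 and 42.7). Dcc, the attractive netrin receptor, had 2.31 and 1.60 (24.2 and 33.7). Plxna2, Nrp2 and Unc5b thus passed the 50th percentile in replicate 1 and missed it in replicate 2.

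The Robo family divided. Robo1 and Robo2, the neuronal slit receptors, were open in both libraries, with signals of 3.29 and 1.14 for Robo1 (32 and 25) and of 1.95 and 0.646 for Robo2 (20.7 and 13.7). Robo3, known for the crossing of commissural axons, had a peak in replicate 1 only, with a signal of 0.843 (8.13). Robo4, a gene known for its expression in vessels, had none in either library. Robo3 and Robo4 lie next to each other on chromosome 9. In all, 4 genes (Epha10, Ntn5, Robo4 and Sema3b) had no promoter peak, 4 (Efna2, Epha8, Robo3 and Sema3g) had one in replicate 1 only, and 0 had one in replicate 2 only. The 4 found in 1 library stood at or under the 24.7 percentile there.

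Promoter sequences of the genes with the strongest and with no promoter peak are set side by side to show the range of CG dinucleotides, the letters that make up CpG islands. They are the RefSeq promoter entries for GRCm38.p6 (mm10), 250 bases before to 50 after a transcript start, of which 56 of the 66 genes had one; the median of 32851 entries held 7 CG. The stretches printed end at the base before the most upstream annotated start, run 5′ to 3′ on the strand of the gene, and show the C57BL/6J reference and not the CAST/EiJ allele. Capitals mark CG. They are Ephb3 and Efnb2, the strongest receptor and ligand promoters, and Robo4 and Ntn5, the receptor and the ligand with the lowest CpG ratio among the genes with no promoter peak and a RefSeq entry. Since the last pair was chosen for low CpG, the counts are a description and say nothing of a relation to opening.
Ephb3 (chr16:21204545-21204754, plus strand): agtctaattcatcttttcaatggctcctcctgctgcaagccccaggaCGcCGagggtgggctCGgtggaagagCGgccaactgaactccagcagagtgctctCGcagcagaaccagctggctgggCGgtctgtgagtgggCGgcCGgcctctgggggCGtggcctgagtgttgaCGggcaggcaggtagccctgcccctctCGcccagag
Efnb2 (chr8:8661243-8661492, minus strand): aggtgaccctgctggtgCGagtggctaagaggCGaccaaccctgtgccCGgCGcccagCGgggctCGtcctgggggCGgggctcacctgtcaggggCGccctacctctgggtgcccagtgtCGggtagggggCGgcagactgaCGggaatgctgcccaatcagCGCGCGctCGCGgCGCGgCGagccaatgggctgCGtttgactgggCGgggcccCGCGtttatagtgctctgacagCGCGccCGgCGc
Robo4 (chr9:37401722-37401896, plus strand): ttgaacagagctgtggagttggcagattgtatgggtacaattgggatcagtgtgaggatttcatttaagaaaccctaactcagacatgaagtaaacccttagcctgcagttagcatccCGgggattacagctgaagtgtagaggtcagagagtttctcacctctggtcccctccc
Ntn5 (chr7:45683772-45684021, plus strand): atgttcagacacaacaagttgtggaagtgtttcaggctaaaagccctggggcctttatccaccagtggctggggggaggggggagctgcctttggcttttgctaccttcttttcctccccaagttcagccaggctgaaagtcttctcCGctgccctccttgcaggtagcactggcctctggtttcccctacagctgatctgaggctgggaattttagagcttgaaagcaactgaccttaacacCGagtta
Over the whole entry Ephb3 held 23 CG and Efnb2 35, more than 78.5% and 93.0% of all entries. Robo4 held 2 and Ntn5 held 3, more than 14.1% and 23.3% of entries.

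Over the whole set, promoter opening was read by CpG content. The observed over expected CpG ratio within 500 bp of the 5′ end had a median of 0.685 over the guidance genes and 0.568 over all genes. In the lowest tertile of all genes by this ratio, 3 of 7 guidance genes had their promoter open in both libraries, against 17.4% of all genes. The ratio was read at the 5′ end of the gene, whereas opening was called at any coding start. At Plxna2, among these 3, the only coding start lies 1607 bp from that end. At Sema3a, in the middle tertile, every coding start lies at least 271370 bp from the 5′ end, so its ratio does not describe its open promoter. The middle tertile gave 29 of 31 against 75.9%, and the highest tertile 26 of 28 against 95.4%, so the share of guidance genes did not rise from the middle to the highest tertile and rests on 7 genes in the lowest. In the highest tertile, however, the guidance promoters were weak for their CpG content, with a median percentile of 39.9 (28 genes) in replicate 1 and 34.3 (26 genes) in replicate 2, against 66.0 and 62.5 over all open promoters of that tertile.

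Several genes had more than one open start. Starts within 1 kb of each other were joined into start groups, which gave 106 groups at the 66 genes, 67 of them (63.2%) open in both libraries and 29 open in neither. Over all genes 46.8% of start groups were open in both. Of 28 guidance genes with more than 1 start group, 8 had more than 1 open in both libraries: Efna1, Epha4, Ephb3, Plxnb1, Robo1, Robo2, Sema4b and Sema6d. The same count was not made over all genes, so whether 8 of 28 is many or few is not known. Sema6d, a transmembrane semaphorin, had all 3 of its start groups open in both libraries, the inner ones 520327 and 563666 bp from the 5′ end. At Robo1 the most upstream of 3 start groups and one 354843 bp further in were open in both libraries, while the start 255394 bp in was open in replicate 1 only. Robo2 had 2 of 5 start groups open in both, at 291 and 478036 bp from the 5′ end.

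From 600 bp into the gene onwards, more bases were open on average at these promoters than at promoters in general. The deposited FDR runs, bases with a false discovery rate under 0.05, were averaged over the starts of each gene and then over genes, for the 58 guidance genes and all 13052 genes with promoters open in both libraries. In the 100 bp before the start, 78.2% of bases were open in replicate 1 and 70.2% in replicate 2, against 80.3% and 77.3% over all genes. From 300 to 400 bp downstream they were 72.3% and 37.7%, against 65.2% and 53.4%, so the guidance genes were above all genes in replicate 1 and below them in replicate 2. In replicate 2 they stayed below until 600 bp. From 900 to 1000 bp downstream the shares were 44.8% and 31.2%, against 17.7% and 16.9%, with 26.4% and 24.8% in the steps on either side in replicate 2. From 1900 to 2000 bp downstream they were 20.7% and 10.6%, against 4.68% and 4.49%. Both libraries thus showed more open bases beyond 600 bp in the mean over genes, and they differed nearer the start.

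**Figure D2:**
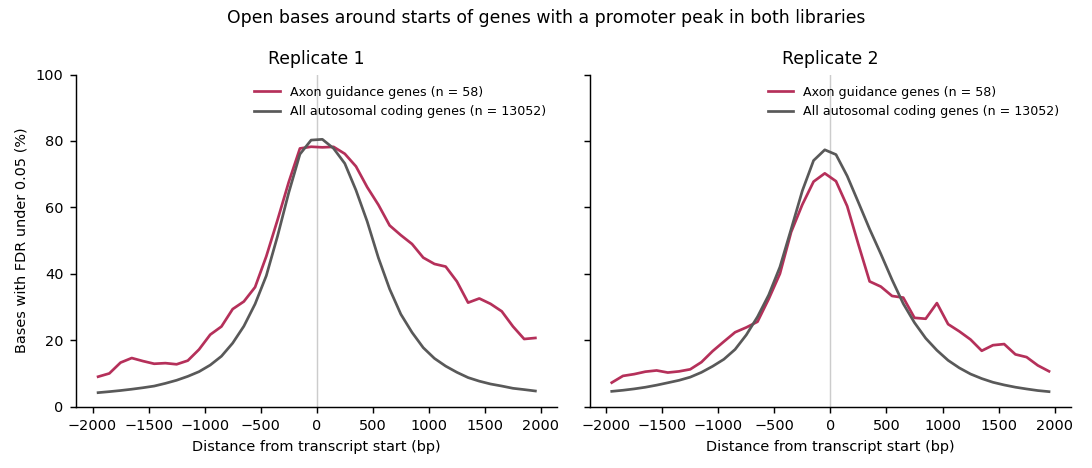
Share of bases with an FDR under 0.05 (vertical axis) in 100 bp steps from 2000 bp upstream to 2000 bp downstream of transcript starts, for replicate 1 (left) and replicate 2 (right); red is the mean over 58 axon guidance genes and grey the mean over 13052 genes, all with promoters open in both libraries. The red line lies above the grey line beyond 600 bp downstream in both panels (44.8% and 31.2% at 900 to 1000 bp against 17.7% and 16.9%), while in replicate 2 it lies below the grey line from the start to 600 bp.

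By gene, the median share of open bases 500 to 2000 bp downstream was 27.4% in replicate 1 and 13.1% in replicate 2, against 8.26% and 7.30% over all genes with a promoter peak in both. This measure was chosen after the profile had been seen. Above the median of all such genes lay 47 of the 58 guidance genes in replicate 1, but only 33 in replicate 2. In replicate 2 the higher mean was thus carried by a part of the genes. In the top 25% of all such genes in both libraries lay 20 of the 58 guidance genes (34.5%), against 17.7% of all. In replicate 1 alone it was 32 of 58, and in replicate 2 alone 21 of 58. Within the highest CpG tertile the medians were 38.4% and 16.5% for guidance genes and 10.8% and 9.80% for all genes. From 500 to 2000 bp upstream, the medians over all 58 guidance genes were 7.57% and 5.97%, against 3.47% and 5.23% over all such genes. Within the highest CpG tertile the upstream medians were 16.8% and 9.57%, against 6.03% and 8.57%.

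By the lower of both libraries, the 4 largest downstream shares were at Eph receptors and a plexin. Epha7 had 90.7% and 93.1% of bases open from 500 to 2000 bp downstream, Epha5 had 83.7% and 86.6%, and Ephb1 had 87.9% and 77.1%. Plxna4, a class A plexin that receives class 3 and class 6 semaphorins, had 73.5% and 86.6%. Their downstream shares were high in both libraries although Epha5 and Plxna4 had promoters under the 50th percentile of signal. Epha7 had only 5.78% and 3.02% upstream. Efna5 was open on the other side of its starts, with 100% and 100% from 500 to 2000 bp upstream and 67% and 24.6% downstream. It was not alone in this. Nrp1 had 100% and 100% upstream and 27.3% and 11.1% downstream, and Epha6 80.4% and 51.5% upstream and 10.9% and 0% downstream. Sema7a had the largest downstream share in replicate 1, with 97.3% and 33.9%. At other genes the libraries parted further: Ntn1 had 86.0% and 6.13%, Ntn3 90.5% and 0%, Plxna1 66.0% and 0%, and Slit3 57.1% and 0%. In these last 4 the larger value was in replicate 1. Within 500 bp of the start, where the promoter peak was called, the median open share was 67.5% and 44.1% for the guidance genes and 63.0% and 55.0% for all, so the guidance genes were above all genes in replicate 1 and below them in replicate 2.

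Distal open sites were also frequent. Distal peaks were those over 1 kb from every annotated start within the gene or 20 kb either side of it. The 66 genes had 663 in replicate 1 and 983 in replicate 2, a median of 8 and 8.5 per gene against 2 and 3 over all genes. Guidance genes are long, with a median length of 62.8 kb against 17.6 kb, and 30 of the 66 fell in the longest decile. Each gene was therefore ranked among all genes of its own length decile. The longest decile is wide, with guidance genes from 115 kb (Nrp2) to 1100 kb (Dcc), so rank within it can still follow length. Per 100 kb of gene and flanks, Dcc had 1.85 and 4.48 distal peaks and Epha7, of 154 kb, had 2.57 and 5.66. Their ranks were 87.7 and 95.4 for Dcc and 26.4 and 30.0 for Epha7. More distal peaks than the median of the decile were found at 45 of the 66 genes (68.2%) in replicate 1 and at 44 (66.7%) in replicate 2, against 41.3% and 45.2% of all genes. In both libraries it was 36 of 66 (54.5%) against 32.5%, while 13 genes exceeded it in neither. With 20 length classes, 35 of 66 exceeded the median in both libraries, against 32.1% of all genes. The median rank within the decile was 74.9 and 74.6, on a scale where 100 is the gene with the most distal peaks.

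**Figure D3:**
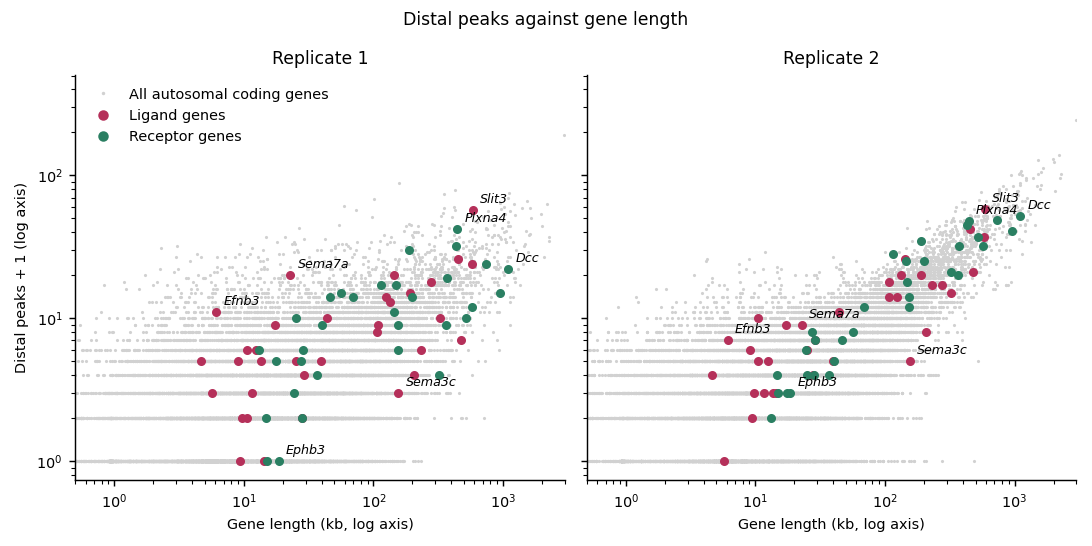
Number of distal peaks plus 1 (vertical log axis) against gene length in kb (horizontal log axis) for every autosomal protein-coding gene (grey), ligand genes (red) and receptor genes (green), in replicate 1 (left) and replicate 2 (right). Slit3, with 56 and 57 distal peaks, lies high for its length, Sema7a and Efnb3 are short genes with many, and Sema3c, with 2 and 4, lies low.

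Slit3 had the highest rank of all 66 genes by the lower of both libraries. This 587 kb gene (chr11:35121224-35708507), which encodes a secreted repellent, had 56 distal peaks in replicate 1 and 57 in replicate 2, ranks of 99.1 and 96.5 in its decile. Of these, 34 in replicate 1 overlapped a peak of replicate 2. Slit1 had 19 and 25 (84.7 and 77.2). Slit2 had 9 and 14 (50.7 and 44.8), near the middle of its decile. The 3 paralogs thus spread from the middle to the top of the ranks, while all 3 promoters were weak. Per 100 kb of gene and flanks, Slit1 had 10.4 and 13.6, Slit3 8.93 and 9.09, and Slit2 2.47 and 3.84. Slit1 was thus denser in distal peaks than the longer Slit3, which ranked higher.

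**Figure D4:**
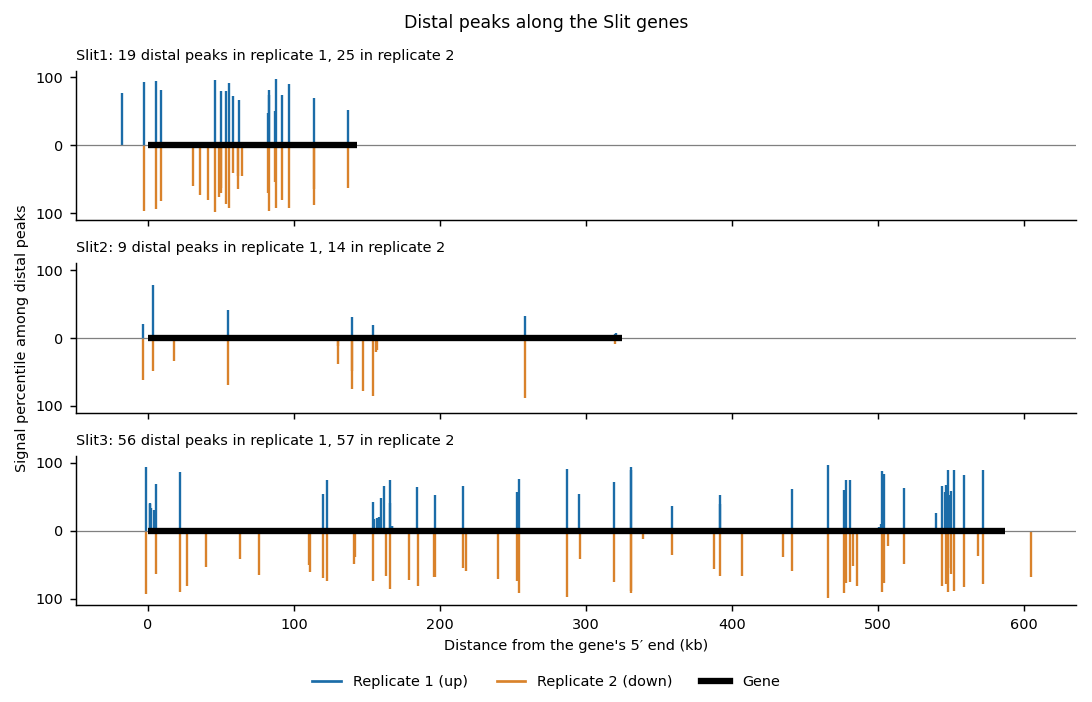
Distal peaks along Slit1, Slit2 and Slit3, drawn to scale with the gene's 5′ end at 0 kb (horizontal axis) and the gene as a black bar; line height is the percentile of the peak's signal among all distal peaks of its library, upwards for replicate 1 (blue) and downwards for replicate 2 (orange). Peaks of Slit3 are spread over the whole gene, 56 in replicate 1 and 57 in replicate 2, and Slit2 has 9 and 14.

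A group of short semaphorin and ephrin genes came next. Sema6b, a transmembrane semaphorin, had 8 distal peaks in each library (ranks 95.2 and 96.4) on a gene of 17.3 kb, 3 of them in the gene itself, and its mean of 8 fell to 4 with the stricter peak lists. Sema7a, the semaphorin with a lipid anchor, had 19 and 8 (99.4 and 95.2) on 22.8 kb, 14 and 3 of them in the gene itself. Only 5 of its 19 peaks in replicate 1 overlapped a peak of replicate 2. Efnb3 had 10 and 6 (97.4 and 94.9) on 6.11 kb, with 1 in the gene itself and the others in the flanks in each library, 4 and 2 of them in the body of another gene. Efnb2 had 9 and 10 (92.7 and 93.4), so both ephrin-B genes ranked high. In number, Sema5a led the semaphorins with 25 and 41 (91.6 and 91.6), Efna5 the ephrin-A genes with 17 and 16 (81.2 and 53.1), and Ntn1 the netrins with 14 and 19 (73.2 and 62.9).

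The lowest ranks also included ligands. Sema3c, a class 3 semaphorin of 156 kb, had 2 and 4 distal peaks (7.81 and 4.70), and Sema3d, of 206 kb, had 3 and 7 (13.9 and 13.0). Sema3a, the longest class 3 gene, had 6 and 20 (32.8 and 66.0), so its place depended on the library. Efna1 had 0 and 1 (14.6 and 29.7).

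**Figure D5:**
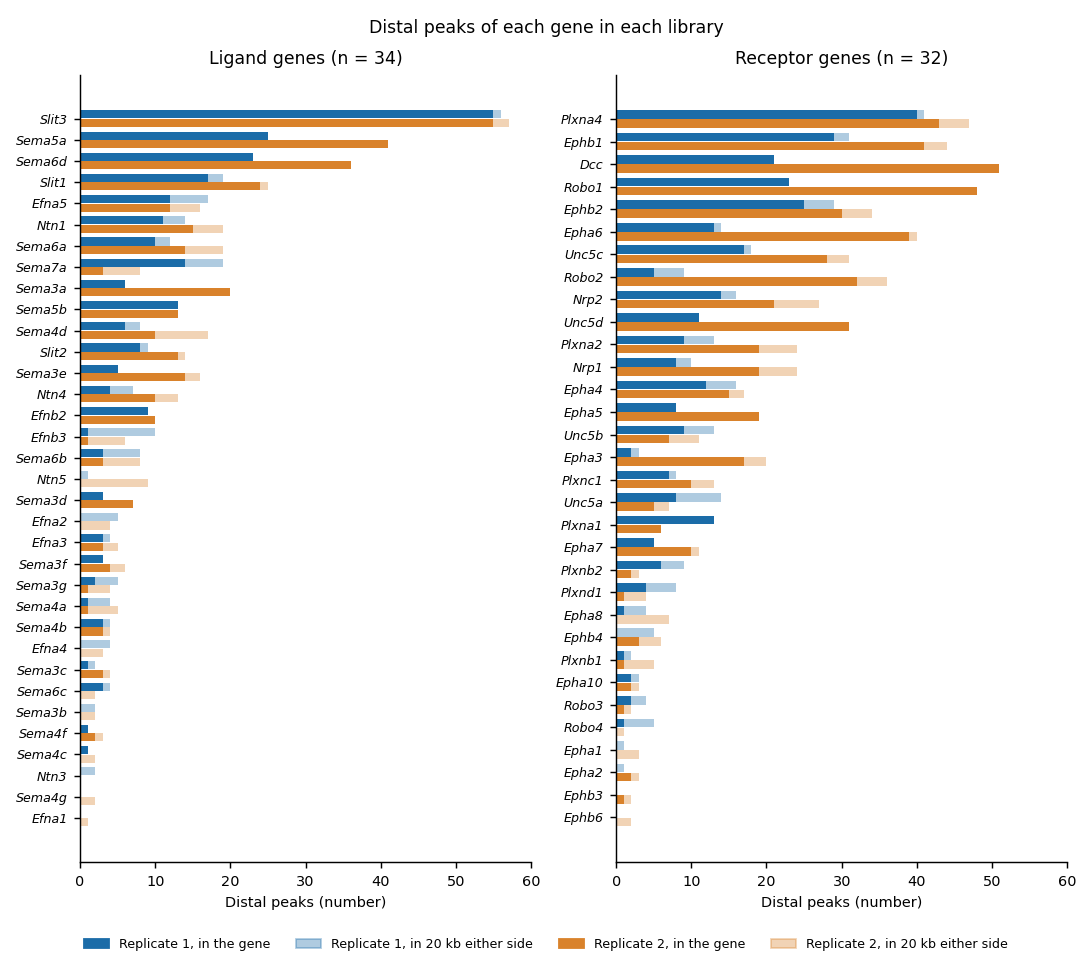
Number of distal peaks (horizontal axis) of each ligand gene (left) and receptor gene (right), replicate 1 in blue and replicate 2 in orange, with the part inside the gene in full colour and the part in the 20 kb either side in light colour. Slit3 and Plxna4 lead their columns by the mean of both libraries, and most peaks of long genes lie inside the gene.

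Among receptors, the median was 9 distal peaks in replicate 1 and 12 in replicate 2, against 5 and 7.5 for ligands, and the receptor genes were longer, with a median of 130 kb against 34.4 kb. By the lower of both ranks within the decile Plxna4 was the highest receptor, with 41 and 47 (97.5 and 94.0) on 444 kb. Ephb1 followed with 31 and 44 (94.6 and 92.8), of which 28 in replicate 1 overlapped a peak of replicate 2. Ephb2, its close relative, had 29 and 34 (93.9 and 87.2). Per 100 kb of gene and flanks the order was another. Plxna4 had 8.47 and 9.71, fewer than Ephb2 with 12.7 and 14.9 or Nrp2 with 10.3 and 17.4. Robo1 had 23 and 48 (89.9 and 94.5), and Dcc, the longest of the 66 genes at 1100 kb, had 21 and 51 (87.7 and 95.4). Epha6 had 14 and 40 (73.2 and 90.9). These last 3 had more peaks in replicate 2, which also had more peaks in all. With the stricter peak lists the mean of both libraries fell from 44 to 22.5 at Plxna4 and from 37.5 to 19 at Ephb1, and from 56.5 to 31.5 at Slit3.

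Families of receptors differed in how many members exceeded the median of their length decile in both libraries, beside 32.5% of all genes. The counts were 3 of 7 plexins, 3 of 9 Epha and 3 of 5 Ephb genes, and 1 of 4 Robo genes. All 4 Unc5 genes did so, among them Unc5c with 18 and 31 (83.0 and 84.8) and Unc5d with 11 and 31 (61.0 and 84.8). Both neuropilin genes did so too, Nrp2 with 16 and 27 (78.5 and 80.3) and Nrp1 with 10 and 24 (56.2 and 75.1). At the low end, Epha7 had 5 and 11 (26.4 and 30.0) and Ephb3 0 and 2 (10.8 and 36.0). Ephb3 and Epha7, the receptors with the strongest promoters by the lower of both percentiles, thus ranked low. The receptors next in promoter strength went the other way, with ranks of 78.5 and 56.9 for Epha4 and of 94.6 and 92.8 for Ephb1. Epha7 lies in the wide longest decile, where rank can still follow length. A relation between promoter strength and distal peaks was not tested.

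Genes without a promoter peak were not empty of distal peaks. Ntn5 had 1 distal peak in replicate 1 and 9 in replicate 2, all in its flanks, Robo4 had 5 and 1, Epha10 had 3 and 3, and Sema3b had 2 and 2. Of the genes open in replicate 1 only, Efna2 had 5 and 4, Sema3g 5 and 4, Epha8 4 and 7, and Robo3 4 and 2. Peaks in the flanks of such short genes can belong to neighbours, and which gene a distal peak serves was not tested.

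Of the distal peaks, 70.6% in replicate 1 and 78.2% in replicate 2 lay in introns of the gene, 10.7% and 5.39% in exons, 11% and 7.43% in the upstream flank and 7.69% and 8.95% in the downstream flank. In the body of another protein-coding gene lay 5.88% and 4.58%. Counting each peak once left 657 and 978 distinct peaks. Of these, 446 (67.9%) in replicate 1 overlapped a peak of replicate 2 by at least 1 bp, and 453 (46.3%) in replicate 2 overlapped one of replicate 1. The same shares over all autosomal distal peaks were 69.2% and 43.0%, so the guidance genes' distal peaks recurred about as often as others.

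The strongest distal peak found in both libraries is shown for the 6 genes with the highest ranks. The sequences are the plus strand of mm10, the C57BL/6J reference. Capitals mark letters that match a searched motif on either strand: the AP-1 letters TGANTCA, the E-box letters CAGCTG and CAGATG, and the short nuclear factor I site TTGGCA. Also searched were the full nuclear factor I site (TTGGC, any 5 letters, GCCAA), the CTCF core (CCA, any 2 letters, AG, any 2 letters, GGC) and the MEF2 letters (CTA, any 4 letters, TAG). The short and full nuclear factor I sites share TTGGC, so a full site followed by the right letter would match both. A match is a description and not a bound site.
Slit3 (chr11:35587241-35587420, intron): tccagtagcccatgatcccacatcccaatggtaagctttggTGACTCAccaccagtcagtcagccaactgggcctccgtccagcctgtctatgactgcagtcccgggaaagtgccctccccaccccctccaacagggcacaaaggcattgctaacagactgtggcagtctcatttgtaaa
Sema6b (chr17:56141801-56142100, upstream): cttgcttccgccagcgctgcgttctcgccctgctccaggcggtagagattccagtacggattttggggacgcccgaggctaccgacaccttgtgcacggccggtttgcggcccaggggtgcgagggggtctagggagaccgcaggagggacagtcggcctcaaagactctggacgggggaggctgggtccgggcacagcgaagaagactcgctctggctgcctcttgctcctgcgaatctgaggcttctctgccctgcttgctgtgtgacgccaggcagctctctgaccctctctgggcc
Sema7a (chr9:57935781-57935960, upstream): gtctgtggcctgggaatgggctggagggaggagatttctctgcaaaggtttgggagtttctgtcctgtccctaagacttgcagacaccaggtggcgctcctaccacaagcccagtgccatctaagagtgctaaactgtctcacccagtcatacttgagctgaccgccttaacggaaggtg
Efnb3 (chr11:69553041-69553260, downstream): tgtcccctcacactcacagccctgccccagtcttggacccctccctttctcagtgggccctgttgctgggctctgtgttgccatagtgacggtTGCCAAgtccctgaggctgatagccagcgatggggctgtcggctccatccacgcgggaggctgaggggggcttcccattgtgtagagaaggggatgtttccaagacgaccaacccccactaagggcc
Plxna4 (chr6:32397181-32397400, intron): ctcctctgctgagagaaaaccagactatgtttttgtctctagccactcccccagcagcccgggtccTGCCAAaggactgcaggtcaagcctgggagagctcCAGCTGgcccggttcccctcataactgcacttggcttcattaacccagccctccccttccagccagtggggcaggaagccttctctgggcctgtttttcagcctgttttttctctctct
Ephb1 (chr9:102183891-102184190, intron): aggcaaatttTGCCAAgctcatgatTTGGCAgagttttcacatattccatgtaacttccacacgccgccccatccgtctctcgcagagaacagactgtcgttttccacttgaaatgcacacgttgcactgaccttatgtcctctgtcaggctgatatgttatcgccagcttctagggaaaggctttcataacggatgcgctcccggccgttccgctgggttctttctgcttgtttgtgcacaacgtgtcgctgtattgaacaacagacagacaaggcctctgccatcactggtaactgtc
The Slit3 site, 466 kb into the gene, had signals of 4.49 and 2.52, at the 96.8 and 98.4 percentiles of all autosomal distal peaks. The Sema7a site, 4.24 kb upstream, had 4.97 and 2.35 (97.4 and 98.0). The Efnb3 site had 3.53 and 1.90 (94.9 and 96.0), the Plxna4 site 3.30 and 2.02 (94.3 and 96.6), the Sema6b site 2.36 and 1.03 (90.1 and 84.8) and the Ephb1 site 1.82 and 1.31 (85.5 and 90.4). The Sema6b site is centred only 1.61 kb upstream of the 5′ end, so it would not count as distal under the 2 kb alternative. Each site also held deposited footprints, short protected stretches inside open chromatin, from 4 to 8 in replicate 1 and from 2 to 6 in replicate 2. The Slit3 site matched the AP-1 letters, the Efnb3 site 1 short nuclear factor I site, the Plxna4 site the E-box CAGCTG and 1 short nuclear factor I site, and the Ephb1 site 2 such sites. In the Sema6b and Sema7a sites these letters were not found.

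Shares of the motif letters were mostly near those of distal peaks at large, and none was tested. In both libraries CAGATG and the short nuclear factor I letters were slightly more frequent in the guidance genes' distal peaks. The CTCF letters were less frequent, as were the MEF2 letters, found in only 7 and 25 of the genes' peaks. CAGCTG and the AP-1 letters were close to the share of all distal peaks in replicate 2, in 182 and 80 of 978 peaks. In the central 200 bp, CAGATG, an E-box form bound by NeuroD-type factors, was in 27.9% of the genes' distal peaks in replicate 1 and 33.8% in replicate 2, against 25.7% and 30.2% of all autosomal distal peaks. CAGCTG was in 23.9% and 18.6% against 22.8% and 18.4%, and TTGGCA in 22.1% and 26.2% against 20.1% and 24.4%. The CTCF core, bound by the insulator protein CTCF, was in 7.00% and 6.03% against 9.52% and 7.88%. The AP-1 letters were in 5.18% and 8.18% against 6.93% and 8.80%, and the MEF2 letters in 1.07% and 2.56% against 2.21% and 3.19%. The full nuclear factor I site was in 1 peak in each library. The GC content of these windows was 54.5% and 48.6% against 53.1% and 47.3%, and its part in the motif shares was not tested.

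Footprints gave a further readout. Distal peaks of the guidance genes held 2.17 footprints per peak in replicate 1 and 1.92 in replicate 2, against 1.91 and 1.82 over all. Promoter peaks held 4.7 and 2.96 per peak, against 4.02 and 3.16, so they were above all genes in replicate 1 and below them in replicate 2. Per 100 bp of promoter peak the values were 1.3 and 0.966, against 1.42 and 1.22, below all genes in both libraries.

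The rest of the pathway also had mostly open promoters. Of 59 other axon guidance genes, 55 had promoters open in both libraries, 34 of 35 intracellular effectors and adaptors, and 21 of 24 further cues, co-receptors and adhesion partners, beside 62.9% of all genes. The list had a median of 8 and 10 distal peaks per gene, and 30 of the 59 exceeded the median of their length decile in both libraries, beside 32.5% of all genes. By the mean of both libraries the most distal peaks were at Dscam, an adhesion molecule and netrin receptor, with 35 and 49, at Lrrc4c, a ligand partner of netrin-G1, with 21 and 53, and at Trio, an exchange factor downstream of Dcc, with 44 and 29, while in replicate 1 alone Mical2, with 45, had the most. Flrt1 had no promoter peak in either library. Draxin and Shh had one in replicate 1 only, and Gap43 in replicate 2 only.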

How the data were processed

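DNase-seq libraries of mouse hippocampus, 2 in 1 group, were used as deposited. Per the deposited file listings, the authors derived each library's files from its own filtered alignment on mm10, so peaks were called per library; for the aligner and the peak caller, names and versions were not given in the sources used here. Signal per peak, the authors' own value, has no stated scaling, so it was ranked within a library. The deposited FDR files give q-values for runs of bases and hold only runs under 0.05. The deposited footprint score was 0.01 in every row and was not used to rank. Of 2 deposited peak lists per library the longer was used.

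Gene models were GENCODE M21. The 20753 genes are autosomal protein-coding genes; 54 with a repeated symbol were left out. Promoter peaks overlapped 500 bp either side of a coding start by at least 1 bp, and distal peaks lay over 1 kb from every annotated start within the gene plus 20 kb. Lengths were split into 10 deciles. A promoter signal is that of the gene's strongest promoter peak. Scripts in Python 3.11.15 with numpy 2.4.6, pandas 2.3.3 and pysam 0.24.0 were tested on simulated data. The members and lists were chosen with earlier results of these data known. All 66 genes may be named; full values were given to the genes with the most distal peaks and the strongest promoter of each family, to genes without a promoter peak in a library, and to the 5 highest and 5 lowest ranks; others (Sema4c, Epha4, Epha5, Ntn1 and the like) were added after their values were seen. Alternatives were the stricter list, equal numbers of peaks, promoter windows of 250 and 1000 bp, the 5′ end only, gene body only, 50 kb flanks, no peaks in other genes, a distance of 2 kb, 20 length classes, other footprint and motif windows, and each library left out.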

Additional observations from a re-analysis of the deposited data

How the results depend on the processing

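With the stricter deposited peak lists, the distal peaks at the guidance genes fell to 360 in replicate 1 and 565 in replicate 2, from 663 and 983; fewer peaks were then counted by construction. Leaving out a library gave 21 to 32 genes in the top 25% for downstream opening, beside 20 in both, and the highest value, without replicate 2, used replicate 1 alone. These settings, and the use of the most upstream start only (21 genes), were chosen after seeing the data. With both libraries kept, the alternatives gave 50 to 60 of 66 genes with an open promoter in both, beside 58.3% to 64.6% of all genes. Genes above the median of their length decile in both numbered 32 to 41, beside 22.4% to 35.1%. Leaving out a library drops a requirement, so those counts cannot be lower. Replicate 1 alone gave 62 and 45 genes, against 67.0% and 41.3% of all genes, and replicate 2 alone 58 and 44, against 64.5% and 45.2%. All stayed within 1.5 times of the reported 58 and 36, though 66 genes cannot exceed that limit for promoters. Distal counts of single genes moved down by more than the spread between libraries at 34 of 66 genes with the stricter lists and at 23 with the gene body only, and up at 33 with 50 kb flanks. No paired analysis was possible because there is 1 group. The unknown depth limits every absence: a missing peak was not detectable in that list, and is not shown to be closed chromatin.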
